A study of Mus musculus with 6 samples.

Results

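The NMDA receptor subunit genes Grin1, Grin2a, Grin2b, Grin2c, Grin2d and Grin3a were taken by symbol from the table of gene counts, and all 6 of 6 were found among the 45470 gene names used. NMDA receptors are glutamate-gated cation channels assembled from the obligatory subunit GluN1, encoded by Grin1, with GluN2 or GluN3 subunits. They open when glutamate and a co-agonist (glycine or D-serine) are bound and depolarisation removes a magnesium block, and the calcium they admit drives synaptic plasticity. In cortex GluN2B predominates early in life and GluN2A is added during postnatal maturation, so the balance of Grin2a and Grin2b is a usual readout of receptor makeup.

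RNA was sequenced from whole homogenised prefrontal cortex taken in postnatal week 8. The 2 groups were wild type mice (3 libraries) and mice heterozygous for a duplication that models human 16p11.2 (3 libraries), in which the matching segment of mouse chromosome 7 is present in an extra copy. Both groups share a C57BL/6 background, reached by 10 generations of backcrossing from a hybrid of C57BL/6N and 129Sv, and no treatment is given for either. The labels do not say whether each library is a separate mouse, so every p-value here reflects the spread among these samples, which may be technical. In homogenate, fewer cells of a type and less RNA per cell cannot be told apart.

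Total gene counts ran from 12988457 to 21872271 per library. Gene names had slipped against counts in the deposited table, and values are given after re-alignment. Kctd13, a gene of the duplicated segment, was at 50.1 to 51.8 CPM (counts scaled to a common library size with TMM factors) in wild type and 74.2 to 108 CPM with the duplication. All 5 markers of excitatory cortical neurons were detected, with a summed level of 1235 to 1489 CPM in wild type and 1201 to 1298 CPM in duplication libraries, while the 4 markers of cerebellar granule cells summed to 0.873 to 3.24 CPM. Summed markers of microglia were at 207 to 235 CPM in wild type and 236 to 243 CPM in duplication libraries, the closest at 235.2 and 235.5 CPM. Taken singly, each microglia marker overlapped between the groups. The summed markers of meningeal fibroblasts were at 18.5 to 27.5 and 25.9 to 54.1 CPM. Those of oligodendrocytes were at 1216 to 2126 CPM in wild type and 1089 to 1469 CPM in duplication libraries. The part of these cell types in the results was not tested. Wild type replicate 2 stood apart from its group: on the first principal component of log2 CPM (45.5% of the variance) it lay at 4.04, replicates 1 and 3 of that group at -27.2 and -26.7, and duplication libraries between 7.23 and 24.8. Results are therefore given with and without it.

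None of the 6 subunit genes passed the test between genotypes over all 15398 genes (edgeR quasi-likelihood test with Benjamini-Hochberg adjustment, threshold 0.05), and 0% of all genes did. The level in duplication libraries, as fitted by edgeR, was 0.601 times wild type for Grin2b, 0.816 times for Grin1, 0.833 times for Grin2a and 0.988 times for Grin3a. At an unadjusted p under 0.05, 2 of the 6 (Grin1 and Grin2b) were lower and 0 were higher, beside 12.2% of all genes lower and 7.05% higher. In 0 of the 6 did the libraries of the groups separate without overlap, beside 22.2% of all genes. The log2 fold changes of the 6 had a median of -0.28, and those of all genes 0.01. Within each library, the count ratio of Grin2a to Grin2b was higher in every duplication library than in any wild type library, by a narrow margin. The lowest duplication value was 0.633 and the highest wild type value 0.626. The exact permutation test gave p = 0.1, the smallest possible here (adjusted p = 0.375 over 15 pairs of genes). How often ratios of other genes separate in this way was not computed.

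The obligatory subunit gene Grin1 lies on the minus strand of chromosome 2 (mm10, 25291181 to 25319187) and spans 28007 bp, of which 9700 bp are annotated exon. Its level was 336, 253 and 302 CPM in wild type replicates 1, 2 and 3 and 225, 245 and 258 CPM in duplication replicates 1, 2 and 3. Wild type replicates 1 and 3 were the highest of the 6 libraries, and wild type replicate 2 lay within the duplication range. The log2 fold change of duplication over wild type was -0.29 ± 0.10 (SE; edgeR adjusted p = 0.189). The antisense gene Grin1os shares 1307 exon bases with Grin1 and had 0 or 1 counts in each library, against 3622 to 4916 for Grin1.

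Among the GluN2 genes, Grin2b encodes the subunit that predominates in the young cortex and binds the kinase CaMKII. It lies on chromosome 6 (mm10, 135713233 to 136173511, minus strand) and spans 460279 bp with 24842 bp of exon, the longest of the 6 genes. Its level was 1610, 840 and 1493 CPM across wild type replicates 1 to 3 and 597, 839 and 933 CPM across duplication replicates 1 to 3. Wild type replicates 1 and 3 stood above every duplication library, whereas wild type replicate 2 was level with duplication replicate 2 and below replicate 3. The wild type mean was 1314 ± 415 CPM (SD, n = 3) and the duplication mean 789.8 ± 173 CPM. Its log2 fold change was -0.73 ± 0.23 (SE; edgeR adjusted p = 0.177), with a 95% interval from -1.26 to -0.21. Of all tested genes, 3.21% had a lower log2 fold change.

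Grin2a encodes the GluN2A subunit of mature synapses and lies on chromosome 16 (mm10, 9567898 to 9995560, minus strand), with 17933 bp of exon in 427663 bp. It was at 748, 526 and 684 CPM across wild type replicates 1 to 3 and at 494, 545 and 590 CPM across duplication replicates 1 to 3. As for Grin1 and Grin2b, wild type replicates 1 and 3 were highest, and wild type replicate 2 lay among the duplication libraries. The log2 fold change was -0.26 ± 0.12 (SE; edgeR adjusted p = 0.274).

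Grin2c encodes a GluN2 subunit best known from cerebellar granule cells and also found in astrocytes, and lies on chromosome 11 (mm10, 115249169 to 115267243, minus strand). It was at 27.4, 25.4 and 18.9 CPM across wild type replicates 1 to 3 and 28.6, 26.9 and 23.8 CPM across duplication replicates 1 to 3. Only wild type replicate 3 lay below all duplication libraries, and the groups overlapped. It was the one subunit gene with a positive log2 fold change, 0.15 ± 0.13 (SE; edgeR adjusted p = 0.558). The 5 astrocyte markers summed to 745 to 866 CPM in wild type and 860 to 960 CPM in duplication libraries, and the sum was also lowest in wild type replicate 3. Slc1a3 made up most of it, at 446 to 591 CPM. Gfap was not lowest in that library, at 27.0 CPM against 24.6 in wild type replicate 2 and 24.7 in duplication replicate 3. The part of the astrocyte markers in the Grin2c levels was not tested.

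Grin2d encodes a GluN2 subunit that is prominent early in development and, in adult cortex, in interneurons. It lies on chromosome 7 (mm10, 45831883 to 45878378, minus strand), the chromosome of the duplicated segment but 80.88 Mb from Mapk3, a gene of that segment. It was the least abundant of the 6, with 67, 26 and 41 counts across wild type replicates 1 to 3 and 52, 41 and 42 counts across duplication replicates 1 to 3. These gave 5.32, 1.81 and 3.004 CPM in wild type and 2.38, 2.77 and 2.65 CPM in duplication. Wild type replicates 1 and 2 were the highest and the lowest of all 6 libraries. The 7 inhibitory neuron markers also summed highest in wild type replicate 1, at 646 CPM against 535 to 560 CPM in the other 5 libraries. Of them, Gad1 (315 against 212 to 233 CPM), Gad2 and Slc32a1 were highest in that library. Sst was lowest there (94.6 against 107 to 123 CPM), and Pvalb, Vip and Lhx6 were highest in other libraries. The part of these markers in the Grin2d levels was not tested. The log2 fold change was -0.37 ± 0.33 (SE; edgeR adjusted p = 0.561), and without wild type replicate 1 it was 0.11.

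Grin3a encodes the glycine-binding GluN3A subunit, which lowers calcium entry through receptors that contain it. It lies on chromosome 4 (mm10, 49661611 to 49845744, minus strand). It was at 70.7, 56.9 and 63.3 CPM across wild type replicates 1 to 3 and 56.0, 65.1 and 67.6 CPM across duplication replicates 1 to 3. The groups overlapped over almost their whole range. The log2 fold change was -0.02 ± 0.10 (SE; edgeR adjusted p = 0.941), with a 95% interval from -0.24 to 0.20. The sign of so small a value turned with upper-quartile scaling (0.01) and without wild type replicate 1 or duplication replicate 1 (0.06 in both). The paralogous Grin3b, for the GluN3B subunit of motor neurons, had 0 counts in 4 libraries and 1 count in each of duplication replicates 1 and 3, too few to be tested; a count of 0 allows up to 0.203 to 0.233 CPM in those 4 libraries.

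**Figure D1:**
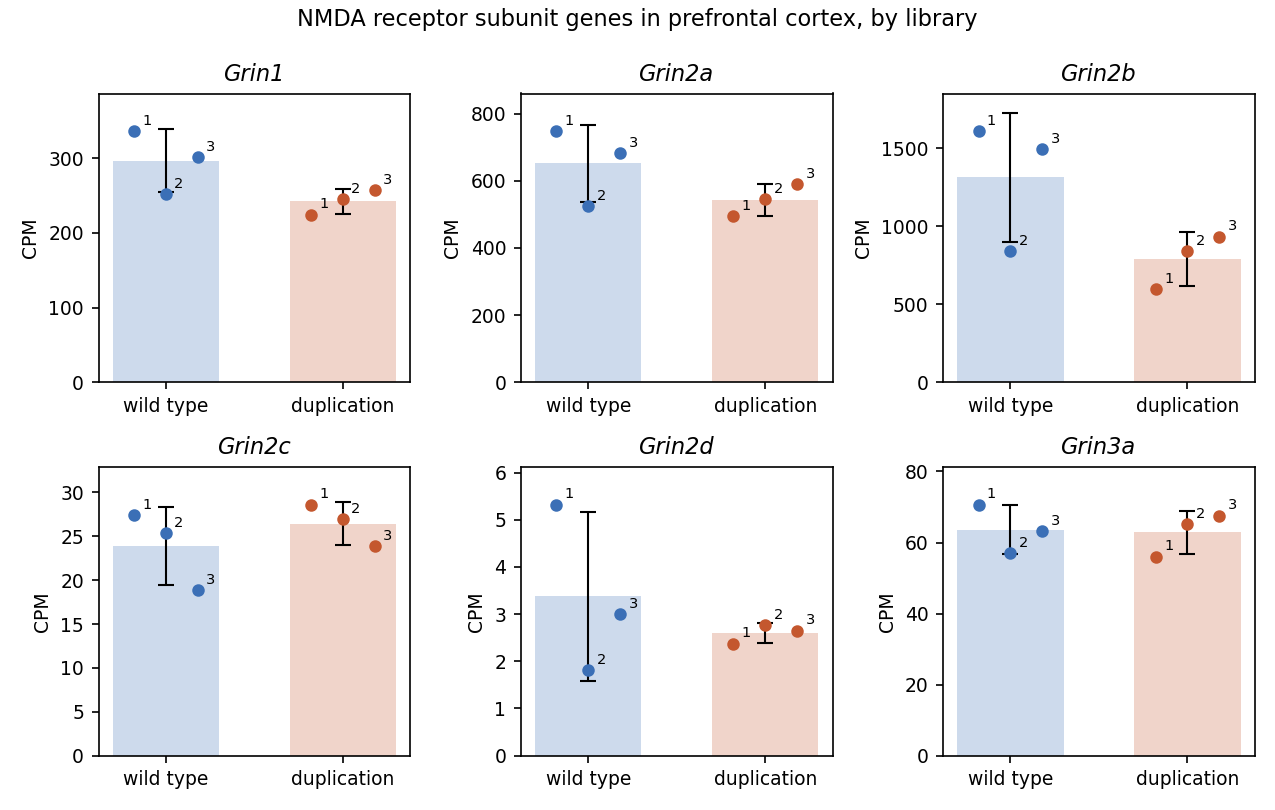
Level of each subunit gene in CPM (vertical axes, from 0) by genotype; points are libraries numbered by replicate, bars the mean and error bars the SD of 3 libraries. Wild type replicate 2 sits among the duplication libraries for Grin2b (840 against 597 to 933 CPM), Grin1 and Grin2a.

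Per kilobase of annotated exon, Grin2b was first in 5 libraries and Grin2a in 1, duplication replicate 1. Grin1 came next after these in 6 of 6 and Grin2d last in 6 of 6, while Grin3a and Grin2c each took the higher place in 3 libraries. In wild type the levels were 52.9 ± 16.7 CPM per kb for Grin2b (SD, n = 3), 36.4 ± 6.38 for Grin2a, 30.6 ± 4.35 for Grin1, 5.18 ± 0.561 for Grin3a, 4.74 ± 0.881 for Grin2c and 0.507 ± 0.268 for Grin2d. In duplication libraries the same levels were 31.8 ± 6.97, 30.3 ± 2.67, 24.99 ± 1.72, 5.13 ± 0.497, 5.25 ± 0.480 and 0.390 ± 0.0305 CPM per kb. The neighbours Grin2b and Grin2a differed by less than the spread in duplication libraries, and Grin3a and Grin2c did so in both groups. Exon length here is the union of all annotated exons, so a gene with long rarely used exons is understated.

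Promoter sequences were shown for the genes whose RefSeq start matched the annotated gene start, Grin1 and Grin2c, whose log2 fold changes had opposite signs with neither past the threshold. The RefSeq table (GRCm38.p6) held 3 of the 6 genes, the other being Grin2d. Each sequence is the 250 bases before the start, on the minus strand, at chr2:25319188-25319437 for Grin1 and chr11:115267244-115267493 for Grin2c. Capitals mark matches on either strand to the E-box CACGTG or the GC box GGGCGG.
Grin1: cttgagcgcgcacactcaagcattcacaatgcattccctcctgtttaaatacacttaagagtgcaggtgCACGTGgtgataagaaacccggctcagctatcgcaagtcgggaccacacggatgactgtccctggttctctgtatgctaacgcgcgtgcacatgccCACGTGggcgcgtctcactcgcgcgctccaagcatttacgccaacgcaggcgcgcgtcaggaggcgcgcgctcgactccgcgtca
Grin2c: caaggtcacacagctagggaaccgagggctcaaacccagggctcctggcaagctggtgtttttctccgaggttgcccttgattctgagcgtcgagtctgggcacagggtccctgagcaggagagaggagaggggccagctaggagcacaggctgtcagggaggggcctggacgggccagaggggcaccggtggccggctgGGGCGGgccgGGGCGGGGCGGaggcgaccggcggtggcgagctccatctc
The Grin1 sequence held 2 E-boxes and 0 GC boxes, and 58.8% of its bases were G or C. The Grin2c sequence held 3 GC boxes, the last 2 sharing 1 base, and 0 E-boxes, with 68.8% G or C. Among 32851 promoter sequences of this length, 6.02% held the E-box and 32.7% the GC box, and the median share of G and C was 52.4%. These matches describe the letters only.

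A ratio of counts within a library does not depend on how libraries are scaled. The count ratio of Grin2a to Grin2b was 0.465, 0.626 and 0.458 across wild type replicates 1 to 3 and 0.828, 0.650 and 0.633 across duplication replicates 1 to 3. All duplication values were above all wild type values, and the closest, wild type replicate 2 and duplication replicate 3, were almost level. The mean log2 ratio differed by 0.45, or 1.37-fold (exact permutation test over libraries, two-sided, p = 0.1, the smallest p that 3 against 3 allows; adjusted p = 0.375 over 15 pairs of genes). As a share of the counts of both genes, Grin2a made up 31.7%, 38.5% and 31.4% in wild type and 45.3%, 39.4% and 38.7% across duplication replicates 1 to 3. The 95% exact binomial intervals of wild type replicate 2 (37.8% to 39.2%) and duplication replicate 3 (38.1% to 39.4%) overlapped, and cover counting error only. Without wild type replicate 2 the log2 difference was 0.60, and without duplication replicate 1 it was 0.33.

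The ratio of Grin2a to Grin1 varied little over the 6 libraries: 2.22, 2.08 and 2.26 across wild type replicates 1 to 3 and 2.20, 2.23 and 2.29 across duplication replicates 1 to 3. The highest was 1.10-fold the lowest (log2 difference between groups 0.03, exact permutation p = 0.5). The ratio of Grin2b to Grin1 varied 1.86-fold, at 4.78, 3.33 and 4.94 in wild type and 2.66, 3.43 and 3.62 in duplication libraries (log2 difference -0.42, exact permutation p = 0.3). The groups overlapped through wild type replicate 2.

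The ratio of Grin3a to Grin1 was 0.210, 0.225 and 0.210 across wild type replicates 1 to 3 and 0.249, 0.266 and 0.262 across duplication replicates 1 to 3. Here wild type replicate 2 lay closer to its own group, and the groups did not overlap. The log2 difference was 0.27 (exact permutation p = 0.1; adjusted p = 0.375 over 15 pairs) and stayed between 0.25 and 0.30 as each library was left out. Grin2a to Grin3a (log2 difference -0.24) and Grin2b to Grin3a (-0.69) were the other pairs without overlap, so 4 of the 15 pairs separated, each with p = 0.1 in the exact permutation test. The pairs share genes and are not independent, and the share over pairs of other genes was not computed. In CPM, a different measure, the groups did not overlap for 22.2% of all genes. Grin2c to Grin1 differed by 0.45 and Grin2d to Grin1 by 0.04, with overlap in both (exact permutation p = 0.2 and p = 0.8).

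**Figure D2:**
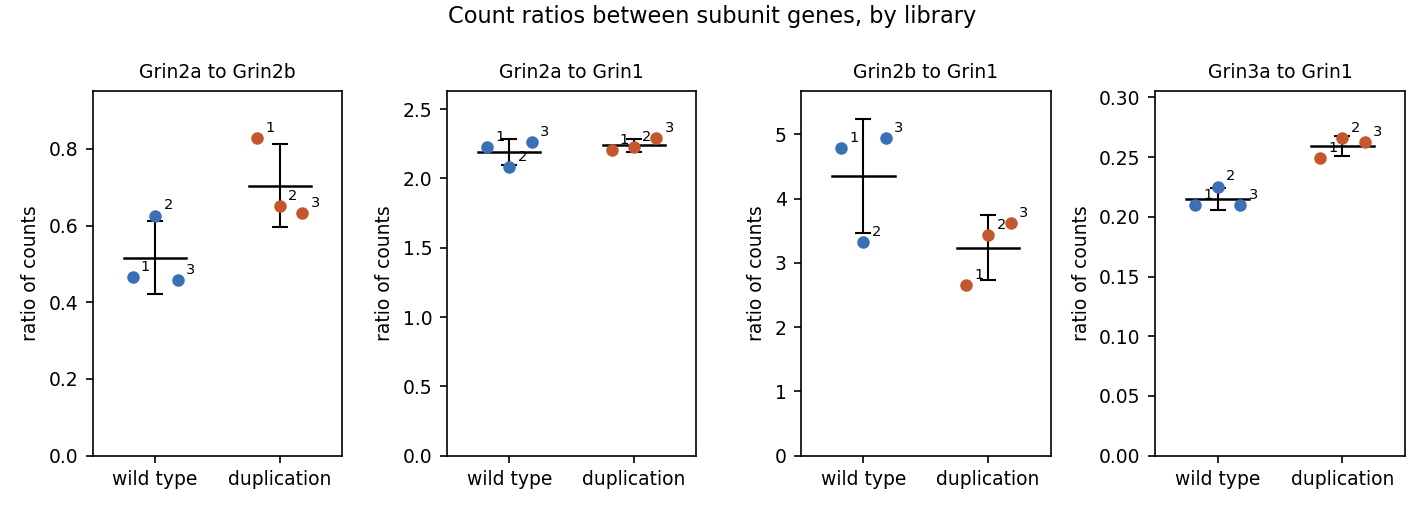
Ratios of counts between subunit genes within each library (vertical axes, from 0); points are libraries numbered by replicate, horizontal lines the mean and error bars the SD of 3 libraries per genotype. Grin2a to Grin2b and Grin3a to Grin1 do not overlap between genotypes, whereas Grin2a to Grin1 stays between 2.08 and 2.29.

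Per kilobase of exon, the Grin2a to Grin2b ratio averaged 0.715 in wild type and 0.974 in duplication libraries. Of the summed level of the 4 GluN2 genes per kilobase, Grin2a took 39.0% ± 3.30 (SD, n = 3) in wild type and 44.9% ± 2.49 in duplication (exact permutation p = 0.1). Grin2b took 55.2% ± 5.04 and 46.6% ± 4.26 (exact permutation p = 0.2), Grin2c 5.29% ± 1.89 and 7.92% ± 1.81, and Grin2d 0.515% ± 0.169 and 0.580% ± 0.0482. The summed GluN2 level stood at 3.06 ± 0.371 times that of Grin1 in wild type and 2.70 ± 0.188 times in duplication libraries (exact permutation p = 0.3), a difference within the spread.

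Grin1, Grin2a and Grin2b varied together over the 6 libraries. Pearson's r of log2 CPM was 0.980 between Grin1 and Grin2b (Spearman's rho 1.0, exact permutation p = 0.0014 for r and 0.0028 for rho, adjusted 0.008 and 0.025 over 9 relations). It was 0.978 without the 2 libraries farthest from the median. Between Grin1 and Grin2a r was 0.980 (rho 0.943) and between Grin2a and Grin2b 0.977 (rho 0.943), each with exact permutation p = 0.0028 for r, 0.0167 for rho, and adjusted values of 0.008 and 0.05. Without the 2 farthest libraries these became 0.839 and 0.891. The summed excitatory neuron markers were also highest in wild type replicates 1 and 3, at 1489 and 1468 CPM, with 1235 CPM in wild type replicate 2 and 1201 to 1298 CPM with the duplication. Slc17a7, the vesicular glutamate transporter gene, made up most of that sum, at 926 to 1143 CPM. Neurod6 did not follow it, at 101, 141 and 133 CPM across wild type replicates 1 to 3 and 125 to 157 CPM with the duplication. None of the 5 markers passed the test over all genes, and their part in the subunit levels was not tested. Each genotype has 3 libraries, too few for a correlation within it, and the points share library and scaling.

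Other genes followed the same pattern. Of 9540 tested genes with a mean of 10 CPM or more, 12.8% had r of 0.9 or more with Grin2b, 12.5% with Grin1 and 11.6% with Grin2a, against 1.47% with Grin2c, 1.57% with Grin2d and 0.566% with Grin3a. The genes most like each, by r of log2 CPM over 6 libraries, were Dlgap2 (0.9999), which encodes a postsynaptic scaffold-associated protein, and Dock3 (0.9995) for Grin1, Nol6 (0.9999) and Myo18a (0.9985) for Grin2a, and Ubap2l (0.9994) and Plxna4 (0.9992) for Grin2b. For Grin2c they were Cdkn1b (0.9979) and Dtnbp1 (0.9889), for Grin2d Rab11fip5 (0.9953) and Acvr1b (0.9949), and for Grin3a Samd10 (0.995) and Reps2 (0.9799). These are the highest of 9540 values for each gene and are descriptions.

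A measure of other RNA in the libraries moved with Grin1, Grin2a and Grin2b. GENCODE classes single-exon loci still awaiting experimental evidence as TEC, and transcripts inside introns as sense intronic, and 290 such transcripts were tested. Their mean log2 CPM, centred over libraries, was 0.47, 0.00 and 0.53 across wild type replicates 1 to 3 and -0.44, -0.43 and -0.13 across duplication replicates 1 to 3. Wild type replicates 1 and 3 were again the highest. Its r with Grin2b was 0.932 (rho 0.886, exact permutation p = 0.0181 and 0.0333, adjusted 0.033 and 0.06), with Grin1 0.928 (rho 0.886, exact permutation p = 0.0097 and 0.0333, adjusted 0.022 and 0.06) and with Grin2a 0.887 (rho 0.771, exact permutation p = 0.0333 and 0.1028, adjusted 0.05 and 0.154). Without the 2 farthest libraries these became 0.610, 0.761 and 0.396. All were lower, and the libraries left are too few to show whether any of these relations held without those 2. For Grin2c r was -0.598, for Grin2d 0.562 and for Grin3a 0.433, with exact permutation p of 0.2014, 0.2667 and 0.3792.

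With that level as a covariate, the log2 fold change of every subunit gene turned in sign: 0.10 for Grin1, 0.27 for Grin2a, 0.38 for Grin2b, -0.16 for Grin2c, 0.71 for Grin2d and 0.29 for Grin3a (edgeR adjusted p = 0.999 for each). That fit has 3 residual degrees of freedom. The level itself had r of -0.86 with genotype, so genotype and this level cannot be told apart in 6 libraries.

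**Figure D3:**
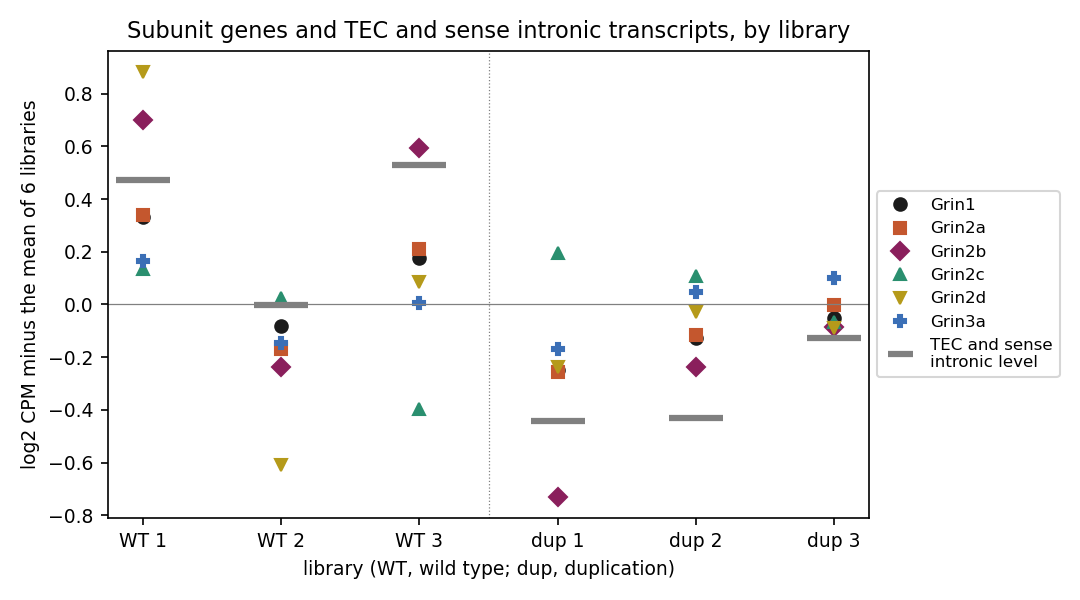
Log2 CPM of each subunit gene minus its mean over the 6 libraries (vertical axis) for wild type (WT) and duplication (dup) replicates, with the mean level of 290 TEC and sense intronic transcripts as grey bars. Grin2b and the grey bars are both high in wild type replicates 1 and 3, and the bar of wild type replicate 2 is at 0.00.

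Leaving out wild type replicate 2 changed the calls. That library lay with the duplication group in Grin1, Grin2a and Grin2b themselves, so its removal had to widen their differences and gives them no added support; 2406 of all genes passed then, against 0 with all libraries. Then 3 of the 6 subunit genes were lower past the threshold: their log2 fold changes were -0.98 for Grin2b (edgeR adjusted p = 0.00356), -0.40 for Grin1 (adjusted p = 0.00748) and -0.40 for Grin2a (adjusted p = 0.00936). The background in that fit was 10.7% of all genes lower and 4.65% higher. Grin2c (0.20), Grin2d (-0.68) and Grin3a (-0.09) did not pass. Leaving out any of the other 5 libraries gave 0 of 6. Without a filter on low counts Grin2b alone passed (adjusted p = 0.00304), with 3.19% of all genes lower past the threshold, and with DESeq2 0 of 6 did, beside 1.85% of all genes.

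**Figure D4:**
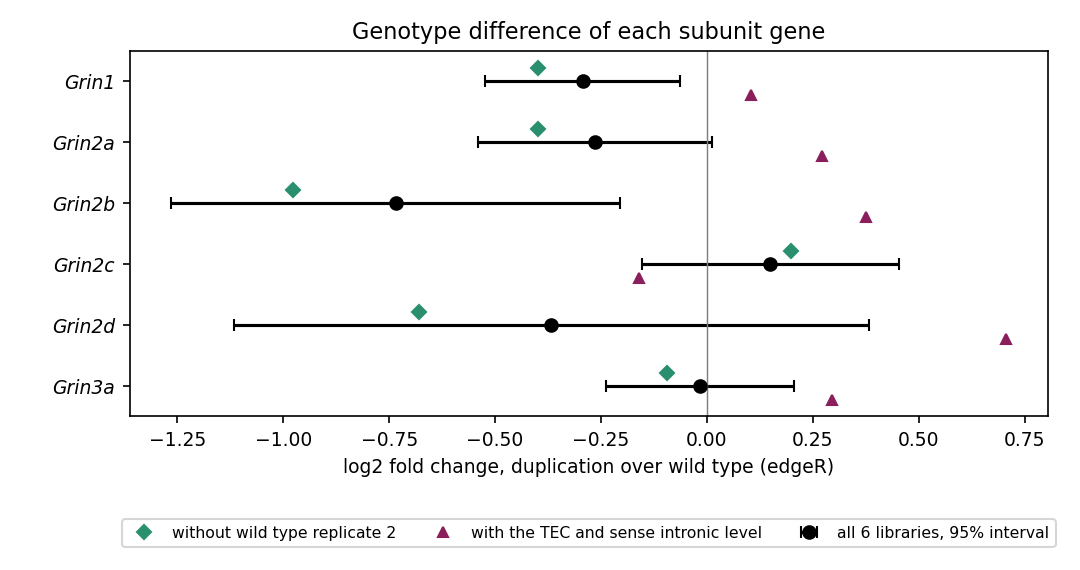
Log2 fold change of duplication over wild type for each subunit gene (horizontal axis): black points with 95% intervals from all 6 libraries, diamonds without wild type replicate 2, triangles with the TEC and sense intronic level as a covariate. For Grin2b these are -0.73, -0.98 and 0.38.

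Other genes of the NMDA receptor pathway were taken as a list of 41, of which 39 were tested and Grin3b and Dao were not. In the test over all genes 0 of the 39 passed. At an unadjusted edgeR p under 0.05, 9 were lower and 3 higher, beside 12.2% and 7.05% of all genes. The median log2 fold change was -0.08, against 0.01 for all genes, and the groups did not overlap for 9 of the 39 (23.1%), a share near the 22.2% of all genes. Without wild type replicate 2, 11 of the 39 were called lower and 3 higher, beside 10.7% and 4.65% of all genes in the same fit. With no filter on low counts, 4 of 40 were called lower and 1 higher, beside 3.19% and 0.655% of all genes.

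By role, 1 of 5 auxiliary and binding membrane proteins, 1 of 5 genes of co-agonist supply and 1 of 5 scaffolds were lower at an unadjusted p under 0.05, and 0 were higher. Of 11 kinases and phosphatases 2 were lower and 2 higher, of 8 trafficking genes 2 were lower, and of 4 signalling partners 2 were lower and 1 higher. The shares over all genes were 12.2% lower and 7.05% higher, and with 4 to 11 genes in each of these roles a count of 1 or 2 does not set a role apart.

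Ptpn5 encodes STEP, a phosphatase that acts on GluN2B, and was at 91.8, 71.4 and 91.7 CPM in wild type and 67.0, 66.5 and 71.3 CPM in duplication libraries. Wild type replicate 2 was barely above duplication replicate 3, so the groups did not overlap (log2 fold change -0.31 ± 0.10, SE; edgeR adjusted p = 0.175). Ppp3ca, the catalytic subunit of the calcium-dependent phosphatase calcineurin, was at 1197, 1263 and 1139 CPM in wild type and 1483, 1336 and 1351 CPM in duplication libraries. All duplication values were higher (log2 fold change 0.21 ± 0.06, SE; edgeR adjusted p = 0.175). Camk2a, for the alpha subunit of CaMKII, averaged 930.4 ± 136 and 865.5 ± 26.1 CPM, a log2 fold change of -0.10 ± 0.10 (SE; edgeR adjusted p = 0.565), with overlapping groups.

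**Figure D5:**
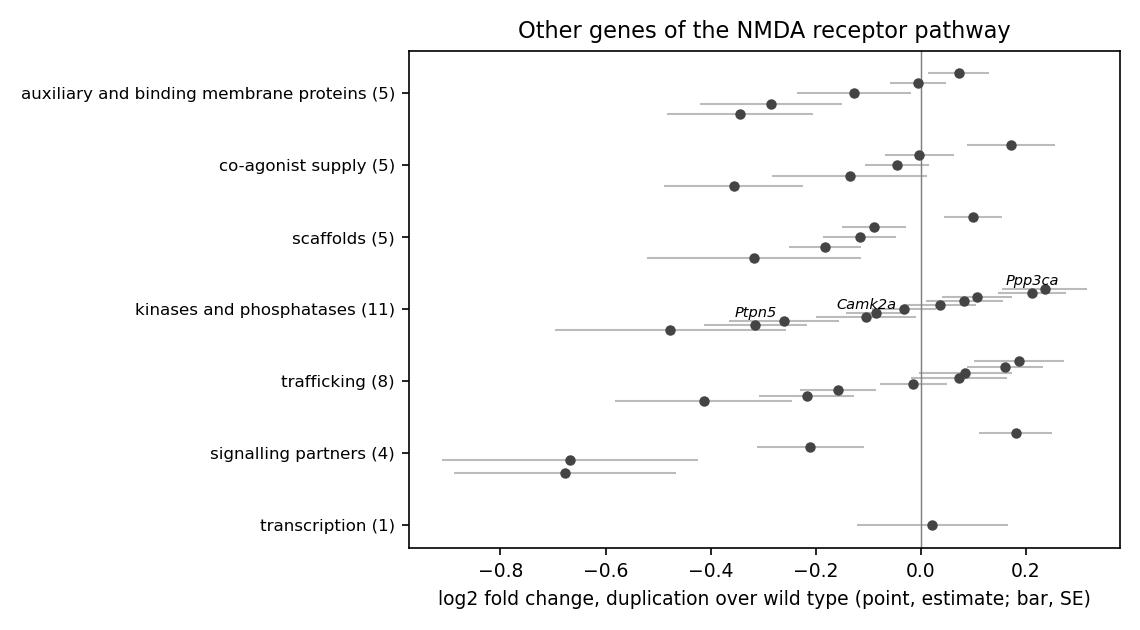
Log2 fold change of duplication over wild type (horizontal axis; points are edgeR estimates, bars their SE) for the 39 tested pathway genes by role, with the number of genes in brackets. The labelled genes run from -0.31 (Ptpn5) to 0.21 (Ppp3ca), and 0 of 39 passed the test over all genes.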

How the data were processed

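Trizol extracts were made into libraries with a stranded, ribosome-depleted total RNA kit, per the labels' protocols. Trimming, alignment and counting by the authors involved cutadapt, TopHat2, HTSeq and build mm10, per the submitters' processing notes. No source read here gives the strand mode of HTSeq, so reads of a gene and its antisense partner may not be told apart. The authors deposited raw counts per gene.

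The deposited table has 45807 lines of counts and 45801 names; names were re-aligned by offsets that rise from 0 to 6 at 6 breaks, and 306 names within 25 lines of a break and 25 names turned into date serials were left out. Of the names used, 91.6% were in GENCODE M21, the source of positions and exon lengths. Lines not used held 0.909% to 0.954% of counts. Grin1 lies 85 lines from the nearest break, the other members farther. The joint table was equal to the tables per library in 274806 of 274806 values.

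Groups were taken from the labels. edgeR 4.0.16 (R 4.3.3) was run with TMM factors, filterByExpr and the quasi-likelihood test on 15398 genes with genotype alone; log2 CPM used a prior count of 2. On simulated counts it was tested for recovery of known changes. Ratios were tested by exact permutation over libraries. DESeq2 1.42.0, limma 3.58.1 (voom) and other scalings, filters, names as deposited and left-out libraries were alternatives. Named genes were the members and, of the pathway list, Grin3b, the 3 smallest p, the 3 most abundant and any past the threshold, and for each member the 2 genes of highest correlation; some genes that this rule names are not reported here. Members and lists were chosen with earlier results of these data known. Reads carry no molecular identifiers and may be PCR copies, so counting intervals cover counting error only.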

Additional observations from a re-analysis of the deposited data

How the results depend on the processing

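The number of subunit genes past the threshold ranged from 0 to 3 as each library was left out, that of pathway genes from 0 to 14 and that of all genes from 0 to 2406, with every highest value without wild type replicate 2. With no filter on low counts these were 1, 5 and 1016. Over all genes DESeq2 called 285 (46 higher, 239 lower) and limma-voom 0, while edgeR with all libraries called 0, with 1086 higher and 1877 lower at an unadjusted p under 0.05. The cause of these differences was not tested. Replicate numbers appear in both groups. For each gene, the deviation of a library's log2 CPM from its group mean was taken. Over genes, these deviations correlated at 0.102, 0.063 and 0.311 between same-numbered libraries of the 2 groups. Between differently numbered ones they correlated at -0.282 to 0.157. The numbers were not taken as pairs, a choice that so few values cannot settle. With the replicate block 7 genes were called (6 higher, 1 lower), 0 of them subunit or pathway genes. In that setting the Grin2a to Grin2b log2 difference was 0.45, a value that pairing cannot change (exact sign-flip test, p = 0.25, the smallest possible). Over 10 alternatives with a value on the same scale, names as deposited set aside, that difference ran from 0.33 to 0.60. Among them, the replicate block and the ratio per length of exons cannot move it. Adding 0.5 to counts of this size hardly can, and all of these gave 0.45. The TEC and sense intronic level was not used as a covariate for this ratio. In the gene fit with that covariate, Grin2b (0.38) was above Grin2a (0.27), the reverse of the order without it.

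Signs turned as follows. With the TEC and sense intronic level as a covariate the log2 fold changes were 0.10 (Grin1), 0.27 (Grin2a), 0.38 (Grin2b), -0.16 (Grin2c), 0.71 (Grin2d) and 0.29 (Grin3a). Grin3a was 0.0077 with upper-quartile factors and ran from -0.0946 to 0.0642 as each library was left out (above 0 without wild type replicate 1 or duplication replicate 1), and Grin2d from -0.6798 to 0.1081 (above 0 without wild type replicate 1). With names as deposited, which set another gene's counts beside the symbol, Grin2d was 0.0532 and Grin3a 0.1064. The log2 difference of the Grin2a to Grin1 ratio ran from -0.0023 (without wild type replicate 2) to 0.0582. Grin2d had the fewest counts, 26 to 67 per library.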
